A study of Mus musculus with 28 samples.

Results

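Imprinted genes, in which only the copy inherited from one parent is active, were followed through the development of mouse peripheral nerve. The 36 genes were taken as a fixed list by symbol (29 in 9 imprinted clusters and 7 at single loci), and all 36 were found among the 41605 gene identifiers of the count table. The list was chosen with earlier results of these data known, so shares of members set beside those of all genes are descriptive. RNA was measured by stranded, poly-A selected sequencing in 7 stages with 4 libraries each: the embryonic stages labelled E13 and E17, given there in whole days and in the study's text as slightly later, postnatal days P1, P5, P14 and P24, and P60 as the adult stage. The mice carried no mutation, received no treatment and were of the C57BL/6J strain, and the study describes both sexes at each stage, although no library is labelled with its sex. At E13 various nerves of 2 embryos were pooled per library and not stripped. At E17 sciatic nerves of 2 embryos were pooled, and from P1 on each library came from the sciatic nerves of 1 mouse. From E17 on the outer nerve sheaths were removed by hand, so that the endoneurium with its axons and Schwann cells was enriched. Changes from E13 to E17 therefore cannot be told apart from the change of tissue. Values are CPM (counts relative to the library total, scaled by the trimmed mean of M values), with the SD between the 4 libraries behind the mean, or for single libraries in the order of their replicate numbers.

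In mammals, marks of DNA methylation that are set in the egg or the sperm are kept through development and silence one parental copy of neighbouring genes, often together with a long non-coding RNA of the same cluster. Many imprinted genes act on growth: those active on the paternal copy tend to promote it, as the growth factor Igf2 does, and those active on the maternal copy tend to restrain it, as Grb10 and Igf2r do. A number of them belong to a set of genes that are abundant in growing fetal tissues and decline after birth in several organs. Parental copies were not distinguished in these counts, so all values are the summed level of both copies.

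Total counts per library ran from 13899895 to 37662780. The labelled tissue, nerve, showed its glial markers from E17 on: the summed level of 6 Schwann cell genes was 3781 ± 191 CPM at E17 and 48956 ± 5958 at P60, with 2 of the 6 genes higher, 1 lower and 3 not called. At E13 it was 681 ± 208, while 8 markers of neuronal cell bodies summed to 949 to 1827 CPM there against 22.7 to 33.4 at E17. The E13 libraries also differed from each other: across the 29 members with an E13 mean of at least 10 CPM, the log2 ratio of replicate 1 to replicate 4 ran from -3.11 for Ddc to 2.73 for Plagl1, with a Pearson correlation of -0.59 with the GC content of the transcript over these genes. In bulk tissue, fewer cells of a type and less RNA per cell cannot be told apart.

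Most of the 36 listed imprinted genes were more abundant in the embryonic nerve and faded in the adult. Summed over the 36 genes, the level was 11097 ± 1273 CPM at E13, 8307 ± 544 at E17 and 1538 ± 42.1 at P60, or a mean of 1.52%, 0.957% and 0.142% of the unscaled counts. In edgeR's quasi-likelihood test over 17700 genes, 34 of the 36 passed the filter on low counts, and Phlda2 and Ascl2 did not. Of the 34, 24 fell and 3 rose from E17 to P60 at an adjusted p under 0.05 and a change of at least 2-fold, and 7 were not called; among all genes tested 17.5% were called lower and 22.2% higher. The median log2 change of the 34 was -2.63, against 0 over all genes. No library of P60 overlapped with one of E17 for any of these 27 genes, as for 94.4% of all genes called; among all genes tested, 67.7% had no overlap. Of all 36, 20 had their highest stage mean at E13, 8 at E17 and 4 at P60. A level that differs at some stage was called for 33 of the 34 (88.8% of all genes), the exception being Ube3a (adjusted p 0.56).

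**Figure D1:**
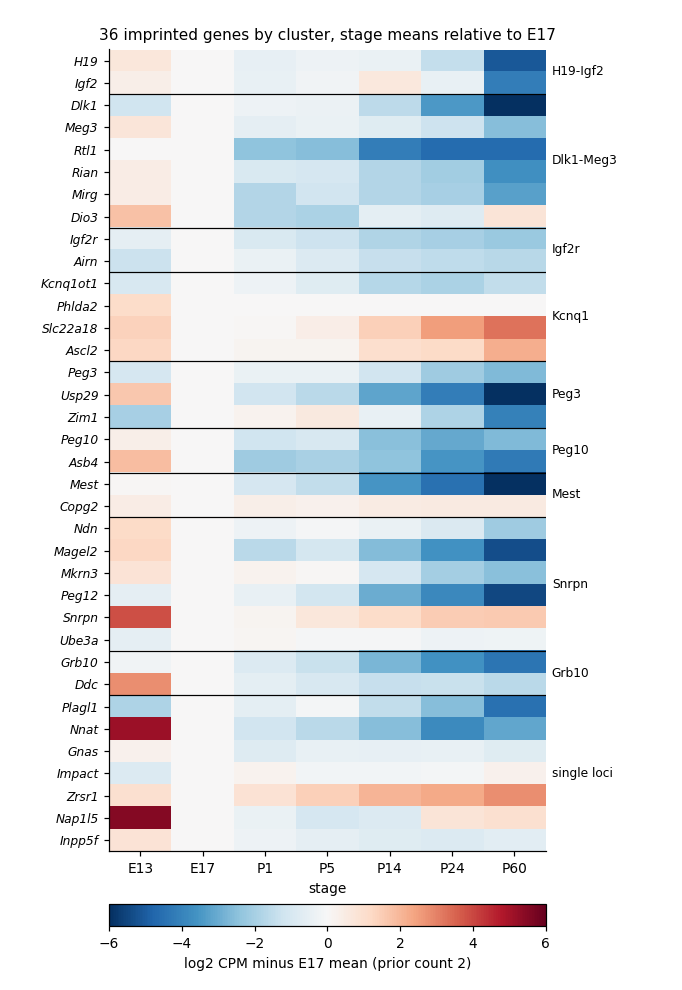
Stage means of the 36 imprinted genes as log2 CPM (with a prior count of 2) minus the gene's E17 mean, ordered by cluster; columns are the 7 stages and colours are cut at -6 and 6. Most rows turn blue from P14 to P60, while Zrsr1, Snrpn and Slc22a18 turn red, and Nnat and Nap1l5 are dark red at E13 only; Phlda2, Ascl2, Dio3, Rtl1, Usp29 and Magel2 rest on few counts in some or all stages.

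How far the genes had fallen depended on the stage. Of the 25 tested members with an E17 mean of at least 10 CPM, 5 stood under 50% of that mean at P1, 14 at P14 and 19 at P60, and 10 stood under 10% of it at P60. Among all 9591 genes past the same minimum, 19.1% stood under 50% and 3.68% under 10% of their E17 mean at P60. The median member kept 73.8% of its E17 level at P1, 38.9% at P14 and 15.8% at P60, and the median of all genes was 101%, 92.1% and 87.7%.

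The order of the genes by level also turned over. Per kilobase of exon, H19 led at E17 with a mean of 618 CPM per kb, followed by Mest with 197 ± 20.8 and Igf2 with 185 ± 24.4, which did not differ beyond their spread. Grb10 (110.2 ± 2.21) and Gnas (104 ± 3.88) came next. At P60 Gnas led with 62 ± 2.53 CPM per kb, ahead of Snrpn with 23.9 ± 1.91, H19 with 18.4 ± 3.08 and Copg2 with 15.9 ± 0.737. H19 and Copg2 lay within the spread of each other.

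**Figure D2:**
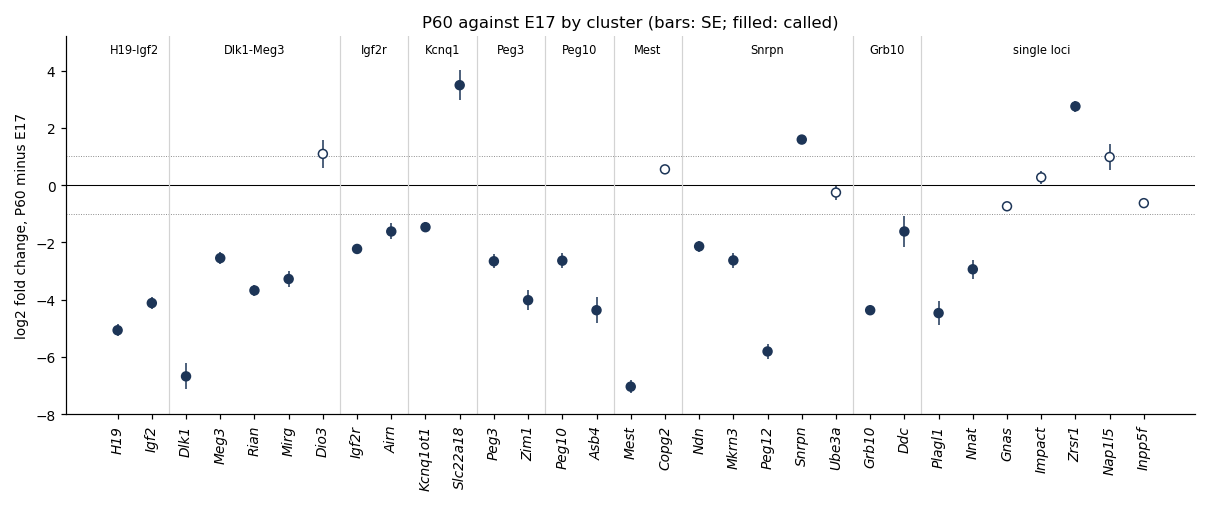
log2 fold change of P60 minus E17 from the quasi-likelihood fit for 31 imprinted genes by cluster; bars are standard errors, filled points passed the threshold and dotted lines mark a change of 2-fold. Rtl1, Usp29 and Magel2 are left out because no P60 library held more than 3 counts of them; Mest (-7.04), Dlk1 (-6.68) and Peg12 (-5.81) lie lowest, and Slc22a18 (3.49), Zrsr1 (2.75) and Snrpn (1.59) are the filled points above 0.

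The H19-Igf2 cluster on chromosome 7 had the highest summed level of the 9 clusters from E13 to P24, with a mean of 2580.2 CPM at E17, and at P60 its 106 CPM lay below the 156 of the Snrpn cluster. Igf2 encodes insulin-like growth factor 2, a fetal growth factor, and H19 is a long non-coding RNA transcribed from the other parental copy. H19 (chromosome 7, 142575529 to 142578143, minus strand in GENCODE M21, GRCm38) read 1629, 2788, 2528 and 3256 CPM at E13, 1634, 1439, 1587 and 1419 at E17 and 890.3, 985, 1339 and 1129 at P1. H19 at P5 read 1272, 1193, 1442 and 996 CPM, then 1119, 1086, 1123 and 1255 (P14), 564, 422, 667 and 651 (P24) and 46.7, 38.9, 39.9 and 55.3 (P60). The libraries of P1, P5 and P14 overlapped, and those of P24 and P60 lay far apart (log2 change -3.67 ± 0.19 SE, adjusted p 6.4e-13). From E17 to P60 it fell by 5.07 ± 0.21 (SE) on the log2 scale (adjusted p 9.6e-18), and 2.97% of the E17 level was left.

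Igf2 (chromosome 7, 142650766 to 142666816, minus strand) read 1329.8, 1761, 1101 and 1195 CPM at E13, 1240.5, 1020, 1077 and 906 at E17 and 802, 633, 957 and 739 at P1. Igf2 at P5 read 1001, 897, 1028 and 786 CPM, then 1460, 1724, 1571 and 1917 (P14), 798, 570, 815 and 918 (P24) and 38.4, 58.7, 67.2 and 78.9 (P60). Its mean was highest at P14, when all 4 libraries lay above those of P5, by 0.85 ± 0.18 (log2, SE, adjusted p 0.00084), which is under the 2-fold minimum. H19 was not called in that step (log2 change -0.10 ± 0.17 SE, adjusted p 0.73). Igf2 then fell to P24 (log2 change -1.11 ± 0.18 SE, adjusted p 0.00029) and again to P60 (log2 change -3.67 ± 0.20 SE, adjusted p 1.2e-12). The first of these drops was -0.99 without P24 replicate 2 and then missed the minimum. That library also had the lowest sum over 6 mesenchymal genes at P24 (5933 CPM, others 10850.3 to 12091), and the part of this was not tested. Reads of Igf2 were shared with Gm49394, a read-through gene on the same strand that covers 62.8% of its exon bases and held 610723 counts in all, against 622659 for Igf2. The opposite-strand transcript Igf2os held 2434, and opposite to H19 Gm27483 held 26 and Gm27786 44.

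H19 carries the hairpin of a microRNA, miR-675, in its first exon. The count table lists this hairpin as Mir675 with 58422 counts, of which the libraries held 1320 to 5273 at E13, 1560 to 3337 at E17, 1786 to 3029 at P14 and 55 to 76 at P60. In relation to H19 the counts were 7.11% ± 0.743 at E17 and 9.81% ± 1.84 at P60. They come from fragments of poly-A RNA over the hairpin and not from mature microRNA, which was not measured. Both arms of the hairpin are shown because they are the products this transcript can give; the RefSeq sequences (GRCm38.p6) have the seed, bases 2 to 8, in capitals, and the seeds differ.
miR-675-5p: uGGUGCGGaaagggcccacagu
miR-675-3p: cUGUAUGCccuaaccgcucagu

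**Figure D3:**
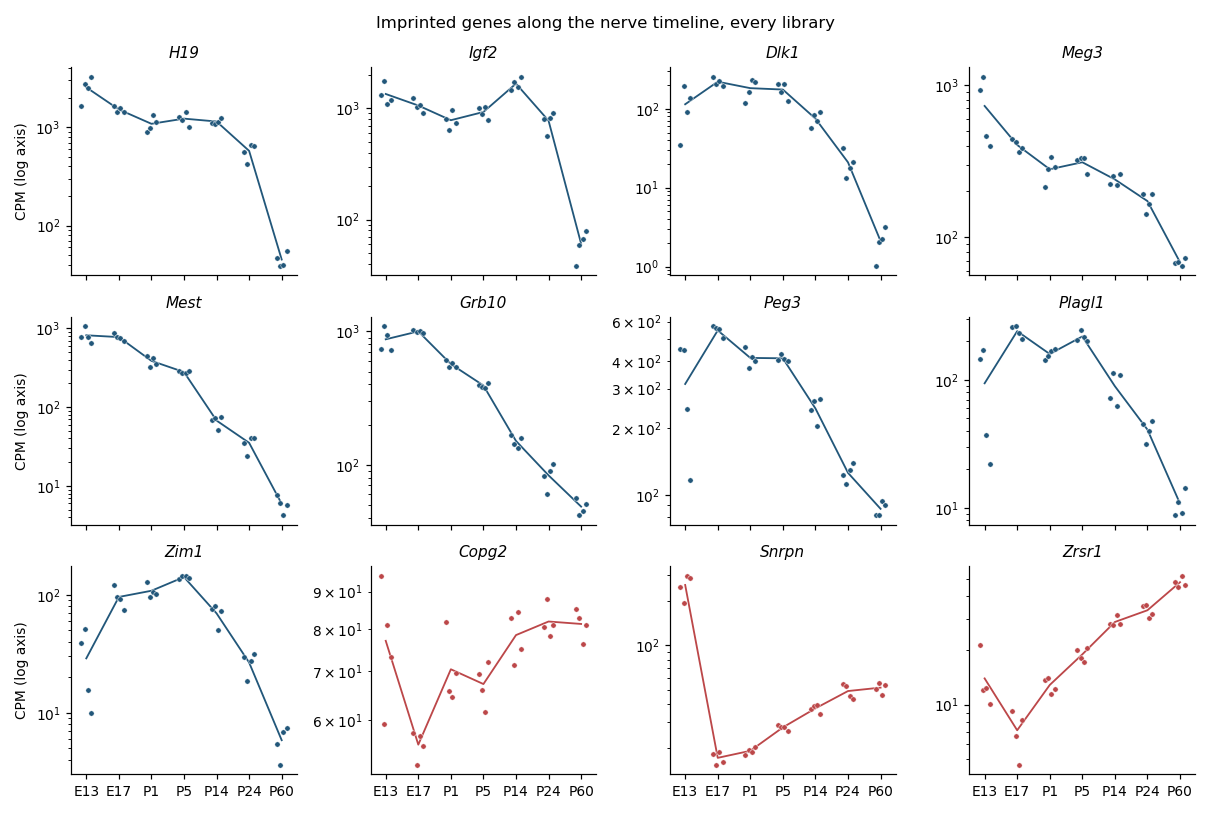
CPM on a log axis, scaled per gene, of 12 imprinted genes in every library (points) with the stage mean (line); red panels are genes that did not fall from E17 to P60. H19 and Igf2 are still above 1000 CPM on average at P14 and at 45.2 and 60.8 at P60, Mest and Grb10 are lower at each stage after E17, and the stage mean of Zrsr1 is higher at each stage after E17.

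In the Dlk1-Meg3 cluster on chromosome 12, Dlk1, Rtl1 and Dio3 are the protein-coding genes of the paternal copy and Meg3, Rian and Mirg non-coding RNAs of the maternal copy. Dlk1, a transmembrane ligand that holds back differentiation of fat and muscle precursors, read 34.5, 194, 90.3 and 137 CPM at E13, 253, 205, 226 and 196 at E17 and 119, 162, 231 and 217 at P1. Dlk1 at P5 read 203, 165, 205 and 127 CPM, then 56.9, 83.8, 69.5 and 89.7 (P14), 31.8, 13.2, 17.9 and 20.9 (P24) and 1.02, 2.03, 2.24 and 3.14 (P60). It fell in each of the last 3 steps, to P14 (log2 change -1.22 ± 0.33 SE, adjusted p 0.0062), to P24 (log2 change -1.85 ± 0.34 SE, adjusted p 0.00097) and to P60 (log2 change -3.28 ± 0.41 SE, adjusted p 1.7e-06), and the stages did not overlap in any of them. The change from E17 to P60 was -6.68 ± 0.45 (log2, SE, adjusted p 3.9e-13).

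The non-coding RNAs of the cluster had smaller fitted changes. Meg3, the first of them along the chromosome, read 921, 1126, 464 and 395 CPM at E13, 444, 421, 364 and 384 at E17 and 214, 279, 334 and 291 at P1. Meg3 at P5 read 322, 331, 331 and 259 CPM, then 224, 253, 221 and 261 (P14), 193, 142, 166 and 191 (P24) and 68.1, 68.9, 65 and 73 (P60). Its one called step after E17 was the last, -1.33 ± 0.22 (log2, SE, adjusted p 5.7e-05). Rian, the host of a row of small nucleolar RNAs, read 944, 753, 515 and 402 CPM at E13, 512, 461, 441 and 425 at E17 and 268, 228, 237 and 228 at P1. Rian at P5 read 221, 228, 229 and 227 CPM, then 140.4, 138, 116 and 144 (P14), 100.1, 98.2, 108 and 133 (P24) and 40.1, 34.2, 33.1 and 35.7 (P60). From E17 to P60, Meg3 changed by -2.55 ± 0.22 (log2, SE, adjusted p 1.1e-10) and Rian by -3.68 ± 0.18 (log2, SE, adjusted p 6.3e-16). Mirg, the host of a large group of microRNAs, was lower throughout, with 17.4 to 23 CPM at E17 and 1.68 to 2.95 at P60 (log2 change -3.28 ± 0.27 SE, adjusted p 2.6e-11). Most of its drop was made by P1 (log2 change -1.79 ± 0.24 SE, adjusted p 1.4e-06).

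Rtl1 and Dio3 were rare. Rtl1, a gene derived from a retrotransposon that is needed in the placenta, held 1.2 to 2.97 CPM at E17, 167 counts in all 4 libraries. It had no count in any library of P24 or P60, so that its E17 mean was at least 10.1-fold higher than 3 counts in the shallowest P60 library. The drop from P5 to P14 (34 counts against 4) was called at an adjusted p of 0.04 in the quasi-likelihood fit, at 0.056 with the replicate number as a block, and at 0.057 to 0.12 without single libraries: P5 replicate 1 or 3, or any replicate of P14. Dio3, which inactivates thyroid hormone, was the member that left the pattern of this cluster: it read 0.629, 1.82, 0.975 and 1.05 CPM at E13 and 0.33, 0.211, 0.155 and 0.314 at E17. Dio3 then had 1 count at P1 and 0 at P5, came back with 0.102, 0.17, 0.123 and 0.152 CPM at P14 and 0.158, 0.105, 0.0988 and 0.0752 at P24, and read 0.512, 1.02, 0.373 and 0.251 at P60. The P60 mean was at least 4.19-fold higher than 3 counts in the shallowest P5 library. The libraries of P60 and E17 overlapped and the difference was not called (log2 change 1.09 ± 0.50 SE, adjusted p 0.059).

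Of the hairpins of this cluster in exons of members, Mir1906-1 in Meg3 held 3711 counts, Mir410 in Mirg 272, Mir3072 in Mirg 133 and Mir770 in Meg3 113. The products of the first and second are printed, since these are the most counted; seeds, bases 2 to 8, are in capitals and none is shared. The sequence of miR-1906 also stands at a second place of the RefSeq table, so its reads may be split.
miR-1906: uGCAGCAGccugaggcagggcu
miR-410-5p: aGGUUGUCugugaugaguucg
miR-410-3p: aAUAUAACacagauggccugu

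At the Igf2r cluster on chromosome 17, Igf2r, the receptor that clears Igf2 from the cell surface, lies opposite to the non-coding RNA Airn. Igf2r read 153, 278, 144 and 98.6 CPM at E13, 244, 222, 242 and 202 at E17 and 120.4, 106, 129.5 and 123 at P1. Igf2r at P5 read 97.7, 98, 102 and 89.8 CPM, then 72.4, 64.3, 59.9 and 64.5 (P14), 54.3, 48.6, 60.6 and 68.8 (P24) and 54.5, 46.4, 43.2 and 49.8 (P60). None of its adjacent steps was called: -0.93 ± 0.18 (log2, SE, adjusted p 0.00028) to P1 and -0.57 ± 0.18 (log2, SE, adjusted p 0.019) to P14 passed on p with no overlap of libraries but lay under the 2-fold minimum. The change from P14 to P24 was -0.17 ± 0.18 (log2, SE, adjusted p 0.77) and that from P24 to P60 -0.26 ± 0.18 (log2, SE, adjusted p 0.4), while E17 to P60 gave -2.23 ± 0.19 (log2, SE, adjusted p 6.6e-11). Airn read 10.3 to 12.2 CPM at E17 and 2.55 to 5.46 at P60 (log2 change -1.62 ± 0.28 SE, adjusted p 1.0e-05). It had risen from E13 to E17 (log2 change 1.13 ± 0.26 SE, adjusted p 0.00056), a change that missed the 2-fold minimum without E13 replicate 3 or 4 (0.90 without the latter), without replicates 1 and 4 (0.93), and with scaling by library size only (0.87).

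Levels in the Kcnq1 cluster were low. Kcnq1ot1, its non-coding RNA, read 30.5 to 36.1 CPM at E17 and 10.5 to 13 at P60 (log2 change -1.47 ± 0.18 SE, adjusted p 4.9e-08), spread over a gene model of 93092 bases that lies across introns of Kcnq1 on the other strand. Phlda2, a growth-restraining gene of the placenta, had counts at E13 only, 11 in all. Ascl2, a transcription factor of the placenta and of intestinal stem cells, had 98 counts in the 28 libraries, 27 of them at P60 against 3 at E17, a ratio of 11.9 with a 95% counting interval of 3.67 to 61.4. Slc22a18, a membrane transporter, went the other way. It read 0.563, 0.646, 0.794 and 0.368 CPM at E13, 0, 0.37, 0.233 and 0.251 at E17 and 0.219, 0.0416, 0.328 and 0.248 at P1. Slc22a18 at P5 read 0.417, 0.258, 0.3 and 0.11 CPM, then 0.716, 0.509, 0.449 and 0.836 (P14), 0.946, 0.994, 1.78 and 2.14 (P24) and 2.92, 1.67, 3.05 and 2.26 (P60). No P60 library overlapped with one of E17, and the rise was 3.49 ± 0.52 (SE) on the log2 scale (adjusted p 1.3e-06). The adult level of 2.47 ± 0.639 CPM is still low.

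In the Peg3 cluster on chromosome 7 all 3 genes fell from E17 to P60, with different courses. Peg3, a zinc finger protein of the paternal copy, read 452, 447, 243 and 117 CPM at E13, 571, 559, 555 and 504 at E17 and 461, 373, 416 and 398 at P1. Peg3 at P5 read 404, 429, 408 and 400.3 CPM, then 240.1, 265, 203 and 269.9 (P14), 123, 112, 129 and 139 (P24) and 81.7, 81.1, 94.3 and 89.8 (P60). No single step of Peg3 reached 2-fold, and from E17 to P60 it fell (log2 change -2.66 ± 0.24 SE, adjusted p 2.2e-10). Zim1, a zinc finger gene of the maternal copy, read 39.3, 50.8, 15.6 and 9.89 CPM at E13, 121, 95.7, 91.9 and 74.4 at E17 and 128, 96.3, 106 and 102 at P1. Zim1 at P5 read 137, 143, 145 and 139.8 CPM, then 75.2, 80.8, 49.9 and 72.3 (P14), 29.6, 18.6, 27.2 and 31.2 (P24) and 5.48, 3.63, 6.84 and 7.47 (P60). Zim1 was thus highest at P5, later than its neighbours. Its falls were -1.39 ± 0.31 (log2, SE, adjusted p 0.0058) to P24 and -2.18 ± 0.34 (log2, SE, adjusted p 3.4e-05) to P60; that from P5 to P14 (-1.02) was -0.89 without P14 replicate 3, with an adjusted p of 0.05, and with DESeq2's size factors or test it lay just under the 2-fold minimum.

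Usp29, a ubiquitin protease gene, starts next to Peg3 and runs away from it. Zim3, which shares 2582 exon bases with it on the other strand, held 1 count. Usp29 read 21.4 to 48.4 CPM at E13, 9.51 to 11.5 at E17, 0.95 to 1.23 at P14 and 0.315 to 0.79 at P24. At P60 1 count was found in the 4 libraries against 825 at E17, a ratio of 623 with a 95% counting interval of 111 to 24618. From E13 to E17 Usp29 fell (log2 change -1.68 ± 0.21 SE, adjusted p 7.2e-08) while Peg3 was higher at E17 in each library (log2 change 0.80 ± 0.23 SE, adjusted p 0.0036), by less than 2-fold. The window around the Usp29 start is shown because it holds both starts. It spans chr7:6730333-6730632 on the plus strand (RefSeq, GRCm38.p6), with the first base of Usp29 at 6730583 and that of Peg3, on the minus strand, at 6730419. Capitals mark the 163 bases between the starts, of which 62% are G or C.
Usp29 and Peg3 starts: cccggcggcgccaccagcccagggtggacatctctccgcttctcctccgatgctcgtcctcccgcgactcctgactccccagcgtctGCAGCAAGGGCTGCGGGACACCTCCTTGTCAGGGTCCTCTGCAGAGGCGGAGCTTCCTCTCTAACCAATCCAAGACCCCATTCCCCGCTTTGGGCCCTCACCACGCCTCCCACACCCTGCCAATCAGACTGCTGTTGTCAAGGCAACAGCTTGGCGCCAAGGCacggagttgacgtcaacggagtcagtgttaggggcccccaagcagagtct

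Peg10 and Asb4 share a cluster on chromosome 6. Peg10, derived from a retrotransposon and needed in the placenta, read 137, 199, 107 and 52.7 CPM at E13, 96.5, 87, 87.7 and 79.4 at E17 and 50.2, 33.6, 33.6 and 35.9 at P1. Peg10 at P5 read 45.9, 45.5, 40.8 and 46.4 CPM, then 14.1, 13.1, 14.3 and 20.2 (P14), 6.15, 11.6, 11.3 and 13.2 (P24) and 15.9, 10.6, 15.7 and 14.2 (P60). The drops fell in 2 steps, at P1 (log2 change -1.19 ± 0.25 SE, adjusted p 0.0006) and at P14 (log2 change -1.53 ± 0.26 SE, adjusted p 4.4e-05), and the adult level lay at that of P14. Asb4, part of a ubiquitin ligase, read 9.31 to 24.6 CPM at E13, 3.96 to 5.88 at E17, 0.75 to 1.09 at P1 and 0 to 0.502 at P60. E17 to P60 was -2.64 ± 0.27 (log2, SE, adjusted p 2.1e-09) for Peg10 and -4.37 ± 0.45 (log2, SE, adjusted p 2.9e-09) for Asb4.

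The Mest cluster, also on chromosome 6, held the largest fitted fall among the members above 50 CPM. Mest, an enzyme of the hydrolase fold linked to growth of fat and of the fetus, read 779, 1064, 782 and 648 CPM at E13, 886, 775, 754 and 689 at E17 and 451, 319.8, 427 and 351 at P1. Mest at P5 read 286, 272, 274 and 285 CPM, then 68.7, 73.9, 51.9 and 75.8 (P14), 35.2, 24.1, 40.8 and 40.9 (P24) and 7.75, 6.02, 4.23 and 5.71 (P60). Each stage after E17 lay below the one before it with no overlap, and 0.764% of the E17 level was left at P60 (log2 change -7.04 ± 0.23 SE, adjusted p 7.1e-20). The largest steps were those to P14 (log2 change -2.05 ± 0.18 SE, adjusted p 1.1e-09) and to P60 (log2 change -2.58 ± 0.19 SE, adjusted p 2.2e-10). The drop to P1 lay on the 2-fold minimum and missed it, at -0.92 to -0.95, without E17 replicate 1 or P1 replicate 2 or 4, and also with no filter beyond 1 count (-0.96) and with E17 and P1 fitted alone (-0.97).

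Copg2, a subunit of the coat of transport vesicles, runs towards Mest from the other side and overlaps it tail to tail in 912 exon bases, with 45755 counts against 227733 for Mest. It read 94.6, 59.4, 81 and 73.3 CPM at E13, 57.6, 52.2, 57.2 and 55.4 at E17 and 81.8, 65.9, 64.6 and 69.6 at P1. Copg2 at P5 read 69.4, 66.1, 61.6 and 72 CPM, then 82.8, 71.5, 84.5 and 75.1 (P14), 80.6, 87.9, 78.2 and 80.9 (P24) and 85.2, 82.7, 76.3 and 80.9 (P60). All P60 libraries lay above those of E17 by 0.55 ± 0.11 (log2, SE, adjusted p 8.0e-05), under the 2-fold minimum. The count table used strand, as far as overlaps show: opposite to Meg3, Gm26906 shares 1228 exon bases with it and held 14 counts against 211575. Mest has 3 start windows, of which 2 hold the letters TGCCGC, and the one with most copies (2) is shown, at chr6:30737800-30738099 (plus strand, RefSeq, GRCm38.p6), where capitals mark the letters TGCCGC on either strand, the core to which the imprint-keeping factor ZFP57 binds when methylated.
Mest start: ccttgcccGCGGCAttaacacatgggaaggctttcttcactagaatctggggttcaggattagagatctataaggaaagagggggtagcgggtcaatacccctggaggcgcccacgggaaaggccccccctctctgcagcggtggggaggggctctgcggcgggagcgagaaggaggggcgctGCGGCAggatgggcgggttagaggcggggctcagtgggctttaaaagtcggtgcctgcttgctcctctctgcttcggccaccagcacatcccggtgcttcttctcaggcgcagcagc

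In the Snrpn cluster on chromosome 7, the region lost or silenced in Prader-Willi and Angelman syndromes, members took opposite courses. Ndn, a MAGE-family protein that restrains cell division in neurons, read 126, 159, 187 and 269.9 CPM at E13, 78.3, 69.4, 92.7 and 81.6 at E17 and 45.1, 72.9, 62.2 and 85 at P1. Ndn at P5 read 78, 73, 85.6 and 65.2 CPM, then 53.6, 58.6, 66.2 and 60.8 (P14), 51.7, 38.1, 46.7 and 42.6 (P24) and 18, 18.5, 15 and 21.5 (P60). No step from E17 to P24 was called, and Ndn fell between P24 and P60 (log2 change -1.29 ± 0.19 SE, adjusted p 1.6e-05). From E13 to E17 the fall was -1.20 ± 0.18 (log2, SE, adjusted p 2.7e-06), or -0.97 without E13 replicate 4, under the 2-fold minimum.

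Snrpn, a protein of the spliceosome core, read 252, 194, 299 and 289 CPM at E13, 18.3, 15.4, 18.9 and 16 at E17 and 18, 19.5, 18.8 and 20.3 at P1. Snrpn at P5 read 28.9, 27.7, 27.9 and 26.1 CPM, then 37, 38.4, 39.6 and 34.1 (P14), 54.4, 52.9, 45.5 and 42.9 (P24) and 50.7, 55.8, 46.3 and 53.7 (P60). It fell from E13 to E17 (log2 change -3.91 ± 0.13 SE, adjusted p 4.8e-19) and then took higher values: P5 lay above P1, P14 above P5 and P24 above P14 in every library. No single step reached 2-fold, and E17 to P60 did (log2 change 1.59 ± 0.12 SE, adjusted p 3.0e-12). Of genes on its strand, Gm38393 shares 589 exon bases with Snrpn and held 22204 counts in all, and Snurf shares 216 and held 9983, against 42784 for Snrpn. Snurf, an upstream gene of the same transcript, had 1.38 ± 0.19 (log2, SE, adjusted p 5.3e-07). Ube3a, a ubiquitin ligase imprinted in neurons, was not called in any comparison: it read 175, 63.8, 61.6 and 32.8 CPM at E13, 104, 96.9, 103 and 102 at E17 and 144, 119, 101 and 90.5 at P1. Ube3a at P5 read 91.3, 111, 87.7 and 104 CPM, then 98.4, 109.8, 79.3 and 102 (P14), 69.7, 93, 74.6 and 89.4 (P24) and 80.2, 81.4, 88.1 and 89.7 (P60). On the strand opposite to Ube3a, Snhg14 shares 1803 exon bases with it and held 5354 counts, 9330162G02Rik held 1045 and Gm44560 23, against 60731 for Ube3a. The difference of P60 from E17 was -0.26 ± 0.27 (log2, SE, adjusted p 0.42).

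The 3 remaining genes of the cluster, Magel2 and Mkrn3 (a regulator of vesicle sorting and a ubiquitin ligase) and the retrogene Peg12, were rare and fell. Peg12 read 12.5 to 15.6 CPM at E17, 1.44 to 2.35 at P14 and 0.126 to 0.439 at P60 (log2 change -5.81 ± 0.26 SE, adjusted p 8.8e-17). Mkrn3 read 3.41 to 5.34 CPM at E17 and 0.435 to 0.877 at P60 (log2 change -2.63 ± 0.26 SE, adjusted p 1.2e-09). Magel2 had 435 counts at E17 and 4 at P60, a ratio of 82.1 with a 95% counting interval of 31.8 to 303. Its last step, from P24, was called in the quasi-likelihood fit (log2 change -2.48, adjusted p 0.015). The call was lost without P24 replicate 2 (-2.25, adjusted p 0.051), without P60 replicate 4 (-2.06, adjusted p 0.06) and with limma-voom (-1.89, adjusted p 0.065). With P24 and P60 fitted alone, Magel2 was left out by the filter.

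Grb10, an adaptor that dampens signals of the insulin and IGF receptors, fell over the timeline. It read 738, 1093, 941 and 721 CPM at E13, 1019, 994, 1015 and 976 at E17 and 607, 541, 583 and 545 at P1. Grb10 at P5 read 399.5, 386, 376 and 411 CPM, then 168, 142, 134 and 159 (P14), 82.5, 60, 89.2 and 101 (P24) and 56.6, 41.7, 45.2 and 50.4 (P60). The stages from E17 to P60 followed each other without overlap (log2 change -4.37 ± 0.15 SE, adjusted p 5.4e-19), and the one step past the 2-fold minimum was that to P14 (log2 change -1.38 ± 0.14 SE, adjusted p 1.2e-08). Its neighbour Ddc, which makes dopamine and serotonin, was seen mainly at E13, with 6.86, 12.5, 26.4 and 60 CPM there against 2.45 to 2.87 at E17 (log2 change -3.30 ± 0.48 SE, adjusted p 1.4e-06) and 0.439 to 1.38 at P60 (log2 change -1.62 ± 0.55 SE, adjusted p 0.013).

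Among the genes at single loci, Plagl1, a zinc finger factor that can switch on other imprinted genes, read 146, 171, 37.3 and 22 CPM at E13, 258, 262, 233 and 207 at E17 and 142, 153, 169 and 173 at P1. Plagl1 at P5 read 206, 247, 218 and 202 CPM, then 72.5, 113, 62.6 and 109 (P14), 45, 31.5, 39.7 and 47.5 (P24) and 8.77, 11.1, 9.14 and 14.3 (P60). It fell at P14 (log2 change -1.29 ± 0.37 SE, adjusted p 0.0084) and at P60 (log2 change -1.91 ± 0.39 SE, adjusted p 0.00089), with -4.47 ± 0.43 (log2, SE, adjusted p 5.4e-10) from E17 in all. The E13 libraries of Plagl1 spread more than 7-fold, and the rise to E17 (1.35) had an adjusted p of 0.075 when E13 and E17 were fitted alone.

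Zrsr1, a splicing factor gene inside an intron of Commd1, took the opposite course. It read 21.5, 12, 12.3 and 10.1 CPM at E13, 9.24, 6.65, 4.62 and 8.23 at E17 and 13.7, 14.1, 11.4 and 12.2 at P1. Zrsr1 at P5 read 20.1, 18.1, 17.3 and 20.6 CPM, then 28.1, 27.7, 31.5 and 28 (P14), 35.6, 36, 30.5 and 31.9 (P24) and 48.4, 45, 52.2 and 46.4 (P60). All P60 libraries lay above all others of the timeline, and the change from E17 was 2.75 ± 0.19 (log2, SE, adjusted p 9.2e-13). Its host gene Commd1, on the other strand, shares 412 exon bases with it, held 24649 counts against 13536, and had -0.72 ± 0.14 (log2, SE, adjusted p 9.1e-05) in the same comparison. Zrsr1 is a retrocopy of a gene on chromosome X, and reads of stretches alike in both may be split.

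Nnat and Nap1l5 were abundant at E13 only. Nnat, a small membrane protein of developing neurons, read 638, 583, 881 and 1348 CPM at E13, 22.1, 21.7, 25.4 and 22.7 at E17 and 8.93, 9.91, 11.4 and 11.6 at P1. Nnat at P5 read 6.54, 7.71, 7.23 and 7.75 CPM, then 6.9, 2.2, 4.08 and 3.61 (P14), 2.44, 0.889, 1.53 and 1.69 (P24) and 2.12, 1.89, 1.93 and 5.9 (P60). Nap1l5, a gene of the nucleosome assembly family, read 57.4, 25.8, 27.8 and 16.6 CPM at E13, 0.22 to 0.737 at E17 and at most 1.89 in any later library. From E13 to E17 both fell, Nnat with -5.23 ± 0.33 (log2, SE, adjusted p 2.0e-13) and Nap1l5 with -5.74 ± 0.43 (log2, SE, adjusted p 7.4e-12). All 8 markers of neuronal cell bodies fell in the same comparison, with a median log2 change of -6.33, and so did 9 of 10 skeletal muscle markers (-3.19) and 4 of 4 macrophage markers (-1.69). The summed skeletal muscle level at E13 was 52.8, 1009.7, 118 and 109 CPM, so most of it lay in replicate 2. The summed level of the neuronal markers was 1296 ± 390.4 CPM at E13 and 26 ± 4.96 at E17, and the part of these cells in the change of Nnat, Nap1l5, Snrpn and Ddc was not tested. Both starts are printed with the letters TGCCGC of either strand in capitals, that of Nnat at chr2:157559828-157560127 (plus strand) and that of Nap1l5 at chr6:58907077-58907376 (minus strand, both RefSeq, GRCm38.p6).
Nnat start: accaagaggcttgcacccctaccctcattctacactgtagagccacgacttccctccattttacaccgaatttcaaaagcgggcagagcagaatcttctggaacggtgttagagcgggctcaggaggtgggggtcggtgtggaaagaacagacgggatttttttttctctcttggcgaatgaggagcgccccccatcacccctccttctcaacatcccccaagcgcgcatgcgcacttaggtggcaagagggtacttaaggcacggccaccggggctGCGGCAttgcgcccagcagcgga
Nap1l5 start: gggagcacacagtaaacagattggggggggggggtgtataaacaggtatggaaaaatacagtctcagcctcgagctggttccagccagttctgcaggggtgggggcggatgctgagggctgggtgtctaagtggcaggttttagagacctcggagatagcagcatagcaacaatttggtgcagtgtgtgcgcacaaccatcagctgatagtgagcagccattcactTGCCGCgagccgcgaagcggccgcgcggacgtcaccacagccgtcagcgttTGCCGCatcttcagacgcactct

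**Figure D4:**
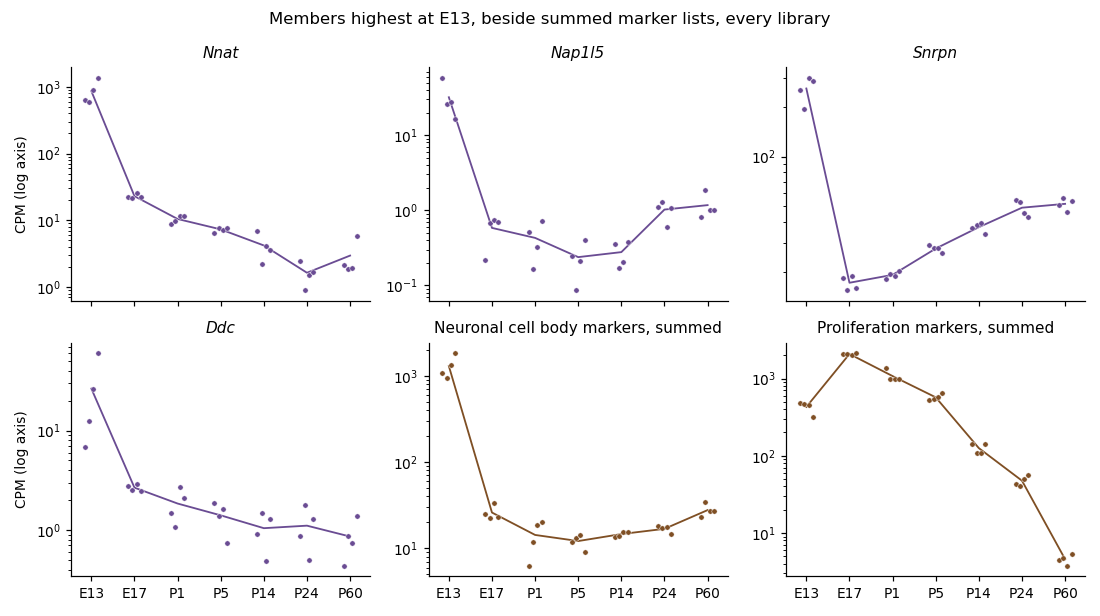
CPM on a log axis, scaled per panel, of 4 members that were highest at E13 (purple) and the summed CPM of 8 neuronal cell body markers and 4 proliferation markers (brown) in every library, with stage means as lines. Nnat, Nap1l5, Snrpn and Ddc drop from E13 to E17, and so does the neuronal sum (1296 to 26 CPM). Among the E13 libraries, replicate 4 has the highest neuronal sum, Nnat and Ddc but the lowest Nap1l5, and Snrpn is highest in replicate 3. Other marker lists, not shown, also fell while the tissue changed. The mean of Snrpn is higher at each stage after E17.

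The other 3 genes at single loci were not called from E17 to P60. Gnas, the alpha subunit of the stimulatory G protein, read 1121 to 1204 CPM at E17 and 668 to 733 at P60 (log2 change -0.74 ± 0.14 SE, adjusted p 3.4e-05). Opposite to it, Nespas held 330 counts and Gm20721 333, against 586106 for Gnas. Impact, a regulator of translation, read 48.3 to 50.8 and 57.3 to 60.5 CPM (log2 change 0.27 ± 0.23 SE, adjusted p 0.3), and Inpp5f, a lipid phosphatase, 62.9 to 69 and 38.1 to 47.4 (log2 change -0.63 ± 0.15 SE, adjusted p 0.00052). In E13 libraries Impact ran from 11.9 to 51.6 CPM, with replicate 4 lowest, as for Peg3, Ube3a and Plagl1.

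Between adjacent stages, the number of members called ranged from 0 to 14. From E13 to E17, 3 members rose (Zim1, Plagl1 and Airn) and 10 fell, led by Nap1l5 and Nnat, against 14.2% and 21.2% of all genes, so that the share called was near that of all genes. From E17 to P1, 9 fell and 0 rose (5.41% and 6.31% of all genes): Dio3, Rtl1, Asb4, Mirg, Magel2, Peg10, Usp29, Nnat and Mest. From P1 to P5, 0 of 34 were called by edgeR, DESeq2 or limma (4.05% of all genes higher, 1.79% lower), while 9 had an unadjusted p under 0.05.

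From P5 to P14, 11 members fell and 1 rose (4.91% and 7.11% of all genes), and Mest, Peg12, Usp29, Magel2, Peg10, Grb10, Plagl1 and Dlk1 were among those that fell. From P14 to P24, 4 fell and 1 rose (1.14% and 1.51%): Dlk1, Zim1, Nnat and Igf2 on one side and Nap1l5 on the other. The call of Nap1l5 was lost without any of 5 single libraries, with log2 changes of 1.68 to 1.80 and adjusted p of 0.057 to 0.093, and that of Nnat without any of 3 (-1.06 to -1.37, adjusted p 0.057 to 0.11). This count was 8 without P14 replicate 3 or P24 replicate 4, and 3 without P24 replicate 2. From P24 to P60, 13 fell and 1 rose (3.41% and 2.55%). The falls were those of Usp29, Igf2, H19, Dlk1, Mest, Magel2, Zim1, Plagl1, Peg12, Rian, Meg3, Ndn and Mirg, and the rise was that of Dio3. From E17 on, 13 of the 34 genes were called in no step (74.7% of all genes), 8 in 1 (15.9%), 7 in 2 (6.58%) and 6 in 3 (2.18%).

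Within clusters, the ratio of neighbours was compared between E17 and P60 for 10 pairs. The ratio was taken as the difference of log2 CPM (prior count 2) in each library and tested by a two-sided exact permutation test of 4 against 4 libraries, in which the smallest p is 0.029, or 0.032 after adjustment over the 10 ratios. The p had this smallest value for each ratio except Igf2r to Airn. No other gene pairs were computed, and since 67.7% of single genes did not overlap between E17 and P60, the number of ratios with this value is not read as particular to imprinted neighbours. The test does not use the replicate numbers, although same-numbered libraries of E17 and P60 deviated together (correlations of 0.27 to 0.45); an exact test over the 4 pairs cannot go below 0.125, so no ratio could pass it. H19 to Igf2 went from 0.53 ± 0.11 at E17 to -0.39 ± 0.46 at P60, a change of -0.92 ± 0.24 (SE); the turn lay between P5 (0.40 ± 0.07) and P14 (-0.54 ± 0.13), and P60 replicate 1 stood at 0.28, above 0 unlike the other 3.

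Among the other pairs, Mest to Copg2 fell by 7.58 ± 0.16 and Grb10 to Ddc changed by -2.75 ± 0.36. Meg3 rose against Dlk1 by 4.19 ± 0.32 and against Rian by 1.13 ± 0.07. Peg3 rose against Usp29 by 4.02 ± 0.26, Ndn against Magel2 by 3.20 ± 0.50 and Peg10 against Asb4 by 1.59 ± 0.64. These 3 depend on the prior count, since the second gene was near 0 at P60: with a prior count of 0.5 they were 5.70, 4.47 and 2.32. The ratio of Peg10 to Asb4 changed by 1.04 without P60 replicate 3. Snrpn to Ube3a rose by 1.85 ± 0.10, from -2.57 ± 0.11 to -0.72 ± 0.16. For Igf2r to Airn the change was -0.57 ± 0.24 (exact permutation p 0.057), or -0.36 without P60 replicate 4.

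**Figure D5:**
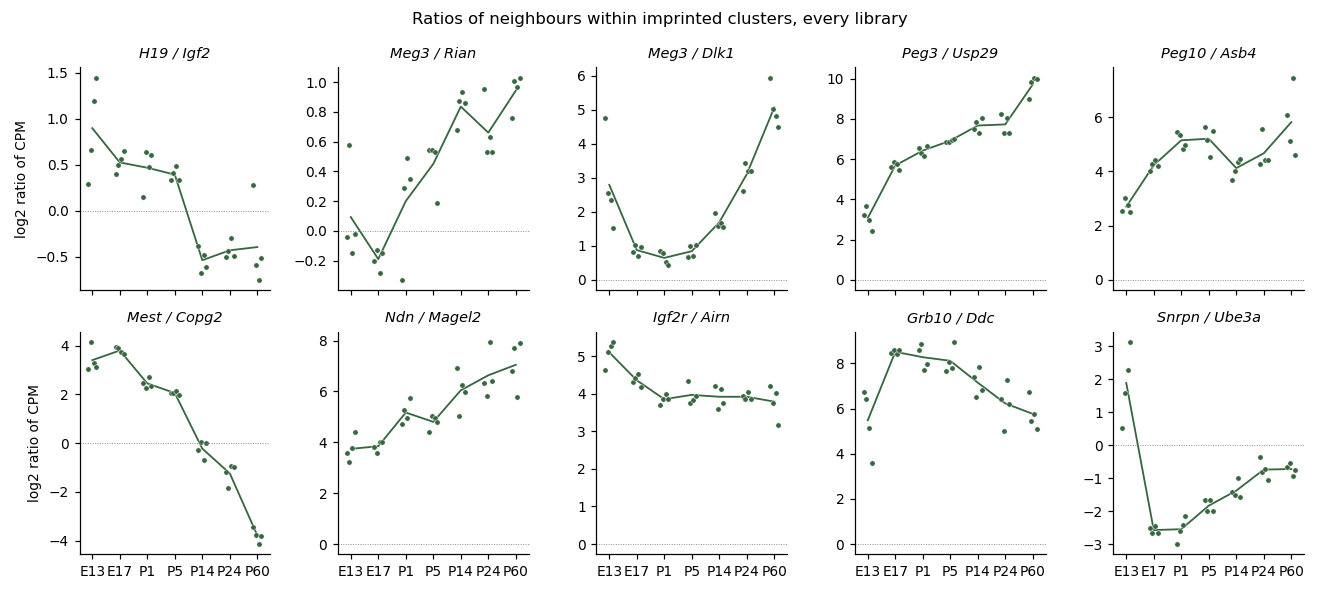
log2 ratio of CPM (prior count 2) of 10 neighbour pairs within imprinted clusters in every library (points) with the stage mean (line); the dotted line marks equal levels and the axes differ between panels. H19 to Igf2 crosses 0 between P5 and P14, Mest to Copg2 falls from 3.80 at E17 to -3.79 at P60, and Igf2r to Airn stays between 3.79 and 4.36 on average from E17 on.

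Deviations of single libraries from their stage were also compared between genes. Over the 24 libraries from E17 on, and for the 25 tested members with an E17 mean of at least 10 CPM, the Pearson correlation of the deviations from the stage mean had a median of 0.10 over the 18 pairs of the same cluster and 0.20 over the 282 other pairs. Among the pairs of a cluster the highest were Peg3 with Zim1 (0.80), Dlk1 with Meg3 (0.71) and Dlk1 with Mirg (0.67), and the lowest was Ndn with Ube3a (-0.65). The 2 genes of a pair share the library and its scaling, so these values are descriptive.

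By textbook assignment of the active copy, 20 members are paternally expressed, 11 maternally, and 5 depend on the isoform or tissue. From E17 to P60, 15 paternally expressed genes fell and 2 rose among 20 tested, with a median log2 change of -2.65, and 8 maternally expressed genes fell and 1 rose among 9 tested, with a median of -3.68; of all genes, 17.5% were called lower and 22.2% higher. In the third group Ddc fell and 4 of 5 were not called. All 6 non-coding members (H19, Meg3, Rian, Mirg, Airn and Kcnq1ot1) fell.

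A wider list of 45 other imprinted genes had a median change near that of all genes. Many of these genes are known as imprinted in placenta or brain only, and the part of this in their course was not tested. In the wider list, 40 genes were tested, of which 10 rose, 6 fell and 24 were not called from E17 to P60 (22.2% of all genes higher, 17.5% lower), with a median of 0.04. Falls were seen for Slc38a4, an amino acid transporter (log2 change -3.06 ± 0.16 SE, adjusted p 3.3e-15), Cdkn1c, an inhibitor of the cell cycle (log2 change -2.91 ± 0.21 SE, adjusted p 1.3e-12), and Begain (log2 change -2.08 ± 0.44 SE, adjusted p 0.00019). Rises were seen for the organic cation transporter Slc22a2 (0.0544 CPM at E17 and 12 at P60), the matrix proteoglycan Dcn (log2 change 2.91 ± 0.21 SE, adjusted p 3.0e-12), the lipid transfer protein Osbpl5 (log2 change 2.61 ± 0.19 SE, adjusted p 2.3e-12), the creatine synthesis enzyme Gatm (log2 change 1.60 ± 0.12 SE, adjusted p 4.9e-12) and Ppp1r9a (log2 change 1.40 ± 0.24 SE, adjusted p 1.6e-05).

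Of 12 genes that keep or read imprints, 11 were tested: 6 fell and 0 rose from E17 to P60, against 17.5% and 22.2% of all genes. Uhrf1 and Dnmt1, which copy DNA methylation when DNA is replicated, changed by -7.44 ± 0.30 (log2, SE, adjusted p 8.2e-18) and -2.69 ± 0.13 (log2, SE, adjusted p 4.1e-16), and the chromatin remodeller Hells by -4.74 ± 0.34 (log2, SE, adjusted p 1.3e-12). Zfp57 changed by -1.86 ± 0.23 (log2, SE, adjusted p 8.8e-08), its partner Trim28 by -1.66 ± 0.19 (log2, SE, adjusted p 1.4e-08) and Smchd1 by -1.14 ± 0.25 (log2, SE, adjusted p 0.00034); Ctcf, which binds the control region of H19 and Igf2, had -0.82 ± 0.10 (log2, SE, adjusted p 6.0e-08), under the 2-fold minimum.

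Markers of several other cell types and of cell division were summed along the same timeline. Summed over 4 proliferation genes, the level was 2078 ± 39.4 CPM at E17, 125 ± 19.8 at P14 and 4.58 ± 0.622 at P60, with all 4 genes lower at P60. Over 6 mesenchymal genes it was 16436 ± 931 CPM at E17, 10141 ± 2853 at P24 and 2636 ± 425 at P60, with 3 genes higher and 2 lower, and over 10 skeletal muscle genes it was 24.7 ± 15.2 CPM at E17 and 3.76 ± 1.55 at P60, with Myh8 and Myod1 at 0. Over 5 cartilage genes it went from 108 ± 7.35 to 13.6 ± 0.769, with Acan and Matn1 at 0. Col2a1 and Sox9 of this list are also the study's markers of endoneurial cells, which reside in the nerve. Over 4 adipocyte genes the sum went from 63.4 ± 9.47, with Plin1 at 0, to 183 ± 81.3, and 3 of the 4 were called higher. The 4 perineurial genes all rose, their sum from 262 ± 16.8 to 1243 ± 175 CPM and the 4 genes of pericytes and smooth muscle from 130.2 ± 9.63 to 564 ± 21. The sums over 4 endothelial genes (284 ± 23.7 and 300.5 ± 4.49) and 4 macrophage genes (79.6 ± 3.54 and 158 ± 19.6) changed less. The part of these cells in the course of the imprinted genes was not tested.

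The letters TGCCGC, searched on both strands in windows from 250 bases before to 50 after each RefSeq start, were found for 10 of the 32 members with an entry (31.2%), against 13.1% of 27025 genes. By window it was 23.4% of the 47 windows of members and 11.6% of all 32851, and 2 copies or more stood in 1.53% of all windows. The members with a match were Igf2, Meg3, Zim1, Mest, Copg2, Grb10, Plagl1, Nnat, Nap1l5 and Snrpn, of which Copg2 and Nap1l5 were not called and Snrpn rose from E17 to P60. H19, Rtl1, Peg10 and Impact had no entry. No test was run on these shares, and methylation was not measured.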

How the data were processed

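Poly-A RNA of 28 nerve libraries had been sequenced as stranded single-end reads, aligned with STAR 2.6.1c and counted per gene with featureCounts, and the authors deposited raw counts, 1 column per library. The genome build is GRCm38.p5 in the submitters' processing notes, while the methods give another name, so positions here come from GENCODE M21 and RefSeq on GRCm38; 41519 of 41605 identifiers matched GENCODE. Total counts ran from 13899895 to 37662780 per library, and intervals cover counting error only. Libraries came from separate embryos or mice.

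Counts were fitted over all 28 libraries with stage as the term (edgeR 4.0.16, quasi-likelihood, TMM scaling, filterByExpr, 17700 genes kept, R 4.3.3). A call needed a Benjamini-Hochberg adjusted p under 0.05 over all genes and a fold of at least 2. On simulated counts for P60 vs E17 with 17700 genes, 100 of 100 genes changed by log2 1.5 and 100 of 100 changed by log2 3 were recovered, with 6 false calls. Every gene was simulated with 1 common dispersion (0.044), and the changed genes had a mean over 1 CPM. Recovery of rarer genes, or of genes with more spread, was not tested. Alternatives used DESeq2 1.42.0, limma 3.58.1, other scalings and filters, the replicate block and leaving out libraries. Ratios were tested in scipy 1.17.1 by two-sided exact permutation. The labels number the replicates 1 to 4 in every stage. Correlations of the deviations of same-numbered libraries were over 0.1 for every pair in 5 comparisons, from 0.11 to 0.49, while P5 vs P1 (lowest -0.08) and P60 vs P24 (lowest 0.03) had a pair below it.

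The members and all lists were chosen with earlier results of these data known. Every member is accounted for. Values in every library are given for members with a highest stage mean of at least 50 CPM that were called from E17 to P60 and for members departing from their cluster, and of the other imprinted genes the 8 with the largest change and a stage mean of at least 10 CPM are named. Genes that overlap a member in exons are named, most with their total counts, except the small RNAs in exons of members and the genes opposite to Kcnq1ot1, which are not all listed. The values of 1 marker list are not reported here.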

Additional observations from a re-analysis of the deposited data

Results flagged for a closer look

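In 14 of 235 groups of 4 libraries, 1 library lay further from the others than Dixon's 95% limit allows; chance flags about 1 in 20 groups, which is 12 here. Among the abundant genes, Meg3 read 259 CPM in P5 replicate 4, against 322 to 331 in the others. Peg10 read 50.2 in P1 replicate 1 (others 33.6 to 35.9) and 40.8 in P5 replicate 3 (45.5 to 46.4). Impact read 50.8 in E17 replicate 1 (48.3 to 48.5) and Zrsr1 31.5 in P14 replicate 3 (27.7 to 28.1).

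Mirg read 52.3 CPM in E13 replicate 2 (others 20 to 22.8) and 5.03 in P1 replicate 1 (6.05 to 6.2). Kcnq1ot1 read 17.6 in P5 replicate 1 (20.3 to 20.4), Mkrn3 1.43 in P14 replicate 3 (2.2 to 2.26) and Asb4 0.75 in P1 replicate 2 (1.05 to 1.09). Nnat read 5.9 in P60 replicate 4, from 94 counts, where the others held 1.89 to 2.12. The other 3 rest on few counts. Nap1l5 read 0.22 CPM in E17 replicate 1 from 4 counts (others 0.687 to 0.737). Dio3 in P1 replicate 3 (0.0365 CPM) and Usp29 in P60 replicate 1 (0.0731 CPM) had 1 count each where the others had 0.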

How the results depend on the processing

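Of 80 calls of single members, 62 were tested and held under every alternative that was run, 12 were lost under at least 1, and 0 reversed. The other 6 held where tested but were left out by the filter in at least 1 alternative: Dio3 in 4 comparisons, and Usp29 and Peg12 from P24 to P60. All 27 calls from E17 to P60 were tested and held. Without the 2-fold minimum the members called of 34 were 28 from E13 to E17 (62.2% of all genes), 16 from E17 to P1 (29.5%), 4 from P1 to P5 (17.6%), 20 at P14 against P5 (29.6%), 13 at P24 against P14 (5.45%), 16 from P24 to P60 (16.1%) and 30 from E17 to P60 (64.3%). From P14 to P24 the 5 calls became 9 with limma-voom and 8 with DESeq2, and 3 to 8 when 1 library was left out (3 without P24 replicate 2, 8 without P14 replicate 3 or P24 replicate 4). Leaving out 1 library gave 13 to 16 from E13 to E17, 8 to 9 from E17 to P1, 9 to 13 from P5 to P14, 13 to 14 from P24 to P60 and 27 to 28 from E17 to P60. With the replicate block, the pairing of equal numbers, the counts were 14, 9, 0, 11, 6 and 14 for the adjacent steps and 27 from E17 to P60; Rtl1 from P5 to P14 was the 1 call lost. The cause of these changes was not tested. Scaling by library size only moved the median change of all genes to -0.33 from E13 to E17 and to -0.31 from E17 to P60. Nap1l5 from P14 to P24 lost its call without any of 5 single libraries (P14 replicates 2 and 3, P24 replicates 1, 2 and 4) and Nnat without P14 replicate 1, P24 replicate 2 or P24 replicate 3. Slc22a18 from E13 to E17 lost its call without E13 replicate 3 or E17 replicate 1, and Mkrn3 from P5 to P14 without P14 replicate 3. Depth limits Rtl1, Dio3, Usp29, Magel2, Phlda2 and Ascl2, which had few or no counts at some stages.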
